A study of Mus musculus with 6 samples.

Results

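The genes described here are 10 genes that mark cardiac fibroblasts at rest, fibroblasts activated by injury, and the epicardium, chosen by symbol from the 54532 genes listed. *Pdgfra*, *Tcf21*, *Dpt* and *Gsn* were taken as the 4 resting genes, *Fap*, *Meox1*, *Runx1* and *Scx* as the 4 activated genes, and *Wt1* and *Tbx18* as the 2 epicardial genes. All 10 were found in the table, each in 1 row. They were measured by bulk RNA sequencing of infarcted and peri-infarct heart tissue on day 7 after myocardial infarction (MI), for which the left anterior descending coronary artery had been tied off. The strain was C57BL/6 by the labels (C57BL/6J in the study's methods) for the 3 WT mice and for the 3 *Crlf2*-/- mice, labelled TSLPR KO, in which the gene for the receptor of thymic stromal lymphopoietin (TSLP) was knocked out. The study's methods describe the WT mice as adult males from an outside supplier and the *Crlf2*-/- line as made by another company, so supplier and genotype cannot be told apart. Sham-operated hearts were not analysed here, and each comparison is between *Crlf2*-/- and WT hearts after MI.

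Cardiac fibroblasts arise in large part from the epicardium, the outer cell layer of the heart, whose cells express *Wt1* and *Tbx18* in the embryo and again after injury. In the healthy heart they keep the collagen scaffold and express the receptor kinase *Pdgfra* and the transcription factor *Tcf21*. After infarction they multiply, move into the infarct and become contractile, matrix-producing myofibroblasts, and part of the resting program is turned down while genes such as *Fap* and *Meox1* are turned on. In bulk tissue, fewer cells of a type and less RNA per cell cannot be told apart.

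The 6 libraries held 18508646 to 19682428 fragments on genes of the table, and the 10 genes rested on 145 to 10461 fragments in a library. *Crlf2* itself had 917, 813 and 707 fragments in the WT libraries and 437, 651 and 667 in the *Crlf2*-/- libraries, so transcript assigned to the targeted gene was present in all 3 libraries labelled knockout. Levels are given in FPKM, fragments per gene length and library depth, after scaling between libraries, and libraries are numbered 1 to 3 within each group as labelled. To be called, a gene had to reach an adjusted p (Benjamini-Hochberg, over the 15520 genes tested) of 0.05 or less together with a log2 fold change of 0.5 or more in size. By this rule limma called 0 of the 10 genes, where 0.0129% of all genes tested were called, 0.00644% as higher and 0.00644% as lower. At an unadjusted p under 0.05 there were 3 of the 10, *Tcf21*, *Gsn* and *Runx1*, against 6.58% of all genes tested. The WT and *Crlf2*-/- libraries did not overlap for 4 of the 10, *Tcf21* and *Gsn* on the lower side and *Runx1* and *Tbx18* on the higher side in *Crlf2*-/- hearts, against 11.7% of all genes tested (6.37% on the lower and 5.37% on the higher side). For *Tcf21*, *Gsn* and *Tbx18* the gap between the groups was less than the counting error. With voom on fragments 0 of the 10 were called and 3 had an unadjusted p under 0.05.

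The promoter windows of these 4 genes are shown because they are the members whose groups did not overlap, which was known when they were chosen. Each holds the 250 bases before a RefSeq transcript start (GRCm38.p6), 5′ to 3′ on the gene's strand. Of the 10 genes, 6 had such a window in the table used, with 9 starts in all. Capitals mark any match, on either strand, to the E-box CANNTG, the motif bound by basic helix-loop-helix factors such as Tcf21 and Scx, to the RUNX motif TGTGGT, the TEAD motif CATTCC, the AP-1 motif TGANTCA, the T-box motif GGTGTGA or the TATA motif TATAAA. These letters may overlap one another.
Tcf21 (chr10:22820144-22820393, minus strand): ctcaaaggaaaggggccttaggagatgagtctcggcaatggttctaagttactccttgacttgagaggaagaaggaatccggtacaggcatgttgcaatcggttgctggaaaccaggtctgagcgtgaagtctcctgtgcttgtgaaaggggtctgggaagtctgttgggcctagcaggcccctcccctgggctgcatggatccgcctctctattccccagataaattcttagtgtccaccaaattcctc
Gsn, first start (chr2:35256109-35256358, plus strand): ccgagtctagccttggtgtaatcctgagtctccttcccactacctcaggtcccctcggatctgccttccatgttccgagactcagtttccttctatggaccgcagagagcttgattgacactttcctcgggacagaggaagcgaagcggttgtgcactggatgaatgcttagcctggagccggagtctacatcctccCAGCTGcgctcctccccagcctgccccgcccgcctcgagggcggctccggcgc
Gsn, second start (chr2:35266494-35266743, plus strand): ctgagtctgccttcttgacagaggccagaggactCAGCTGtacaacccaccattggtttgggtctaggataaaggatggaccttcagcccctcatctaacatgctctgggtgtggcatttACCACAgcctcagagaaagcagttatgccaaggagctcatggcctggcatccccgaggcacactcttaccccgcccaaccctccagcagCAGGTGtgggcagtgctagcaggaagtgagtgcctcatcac
Gsn, last start (chr2:35282130-35282379, plus strand): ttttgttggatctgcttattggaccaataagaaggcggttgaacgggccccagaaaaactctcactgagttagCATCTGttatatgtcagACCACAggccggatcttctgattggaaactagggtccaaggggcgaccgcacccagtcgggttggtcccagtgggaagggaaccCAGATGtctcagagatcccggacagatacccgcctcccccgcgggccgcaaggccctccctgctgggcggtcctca
Runx1, distal start (chr16:92826075-92826324, minus strand): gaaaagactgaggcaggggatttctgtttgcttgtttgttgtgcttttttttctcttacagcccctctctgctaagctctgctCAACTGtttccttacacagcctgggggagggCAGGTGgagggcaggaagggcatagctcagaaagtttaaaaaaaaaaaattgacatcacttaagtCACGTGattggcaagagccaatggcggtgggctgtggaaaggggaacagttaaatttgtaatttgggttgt
Runx1, proximal start (chr16:92697330-92697579, minus strand): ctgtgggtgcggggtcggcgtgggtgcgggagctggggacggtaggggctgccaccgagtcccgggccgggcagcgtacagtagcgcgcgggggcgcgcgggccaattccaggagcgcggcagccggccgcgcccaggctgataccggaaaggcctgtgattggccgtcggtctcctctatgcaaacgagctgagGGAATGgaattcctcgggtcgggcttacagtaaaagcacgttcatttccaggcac
Tbx18 (chr9:87731261-87731510, minus strand): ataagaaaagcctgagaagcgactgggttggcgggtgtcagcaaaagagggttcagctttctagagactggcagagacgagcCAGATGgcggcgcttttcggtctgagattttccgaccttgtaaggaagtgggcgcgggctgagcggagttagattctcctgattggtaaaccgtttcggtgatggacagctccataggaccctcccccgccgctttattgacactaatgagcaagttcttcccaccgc
The *Tcf21* window held 0 matches to any of the 6 motifs. The window of the first *Gsn* start held 1 E-box, and those of its other starts each held 2 E-boxes and 1 RUNX motif. The *Tbx18* window held 1 E-box. *Runx1* is transcribed from a distal and a proximal promoter, and the window of the distal start held 3 E-boxes while that of the proximal start held 1 TEAD motif and no E-box. An E-box was present in 66.2% of the 32851 windows of this length, a RUNX motif in 14.0%, a TEAD motif in 12.6%, a TATA motif in 12.4%, an AP-1 motif in 6.75% and a T-box motif in 3.33%. Values per gene do not show which start was used, and a match is only a description of the letters.

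The 10 genes differed widely in level. *Dpt* was the most abundant, at a mean of 173 FPKM over the 6 libraries and the 98.9th percentile of the genes tested, followed by *Gsn* at 127 FPKM, *Meox1* at 37.1, *Tcf21* at 23.4, *Scx* at 16.4, *Pdgfra* at 15.4, *Runx1* at 9.90, *Fap* at 8.05, *Tbx18* at 7.61 and *Wt1* at 2.08 FPKM. *Dpt* exceeded *Gsn* in all 6 libraries, although their ranges overlapped. The order also held in all 6 libraries between *Gsn*, *Meox1* and *Tcf21*, between *Pdgfra* and *Runx1* and between *Tbx18* and *Wt1*, with no overlap of their ranges. *Tcf21* exceeded *Scx* in 4 of 6 libraries, *Scx* exceeded *Pdgfra* in 3 of 6, *Runx1* exceeded *Fap* in 5 of 6 and *Fap* exceeded *Tbx18* in 3 of 6. The order of these neighbours thus varied between libraries, and their ranges overlapped. Differences in level between genes were not tested. Among related genes, *Meox1* stood above its paralog *Meox2* (6.24 FPKM over the 6 libraries) and *Pdgfra* stood below *Pdgfrb* (57.6 FPKM), the PDGF receptor that mural cells also carry.

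**Figure D1:**
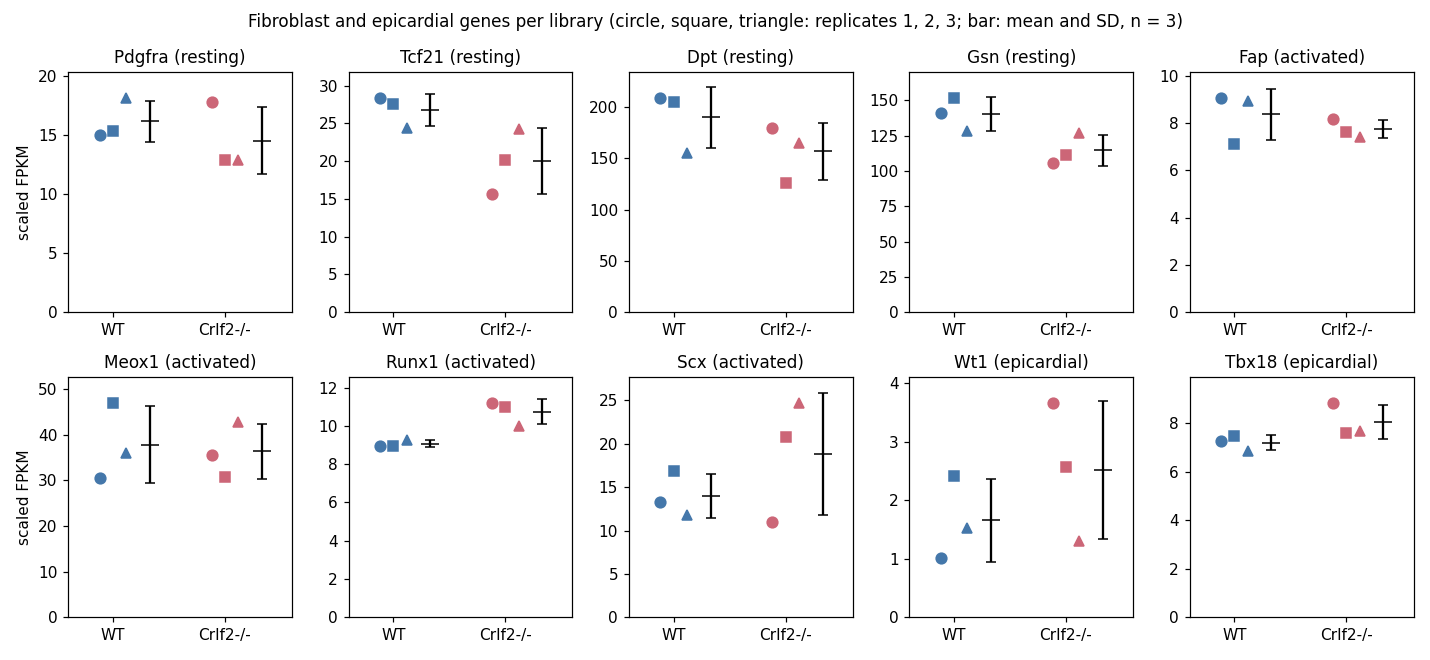
Scaled FPKM of each of the 10 genes (vertical axes from 0, a different scale for each gene) in the 3 WT and 3 Crlf2-/- libraries. Points are libraries and bars give the mean and SD (n = 3), and only Tcf21, Gsn, Runx1 and Tbx18 show no overlap between the groups.

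All 4 resting genes had a lower mean in *Crlf2*-/- hearts, at 74.8% to 89.7% of the WT mean, and none was called. Their median log2 fold change was -0.29, where the median of all genes tested was -0.004. *Tcf21*, a transcription factor needed for fibroblasts to form from the epicardium, is at chr10:22817281-22820174 (minus strand, ENSMUSG00000045680, GRCm38). Its level was 28.4, 27.5 and 24.4 FPKM in the WT libraries and 15.6, 20.2 and 24.3 FPKM in the *Crlf2*-/- libraries. The first *Crlf2*-/- library was thus far below WT, while the third lay only 0.0919 FPKM below the lowest WT library, less than the counting error of either. The WT mean was 26.8 ± 2.13 FPKM (SD, n = 3) and the *Crlf2*-/- mean was 74.8% of it, with an SD of 4.32 FPKM (n = 3). The log2 fold change of *Tcf21* was -0.44 with a standard error (SE) of 0.16 (unadjusted p = 0.0272, adjusted p = 0.65, limma). The 95% interval of the fold was 0.57 to 0.957. The log2 fold change was -0.27 without *Crlf2*-/- replicate 1 and -0.58 without *Crlf2*-/- replicate 3. An antisense gene, *Gm10824*, overlaps *Tcf21* and had 41 to 71 fragments in a library, against 810 to 1526 for *Tcf21*. Whether the counting used strand is not given in the sources used here.

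*Gsn* encodes gelsolin, which severs and caps actin filaments and is abundant in fibroblasts but also made by other cells. It is at chr2:35256380-35307892 (plus strand, ENSMUSG00000026879). It was measured at 141, 152 and 128 FPKM in WT and at 106, 111 and 127 FPKM in *Crlf2*-/- libraries. As for *Tcf21*, the third *Crlf2*-/- library came close to the lowest WT library, with a gap of 0.848 FPKM, less than the counting error of either. *Gsn* had a log2 fold change of -0.29 (SE 0.13, unadjusted p = 0.0489, adjusted p = 0.756, limma), with a 95% interval of the fold from 0.669 to 0.999.

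*Dpt* encodes dermatopontin, a small matrix protein found in fibroblasts of many tissues, and is at chr1:164796644-164824266 (plus strand, ENSMUSG00000026574). Its level was 209, 205 and 155 FPKM in WT and 179, 126 and 165 FPKM in *Crlf2*-/- libraries. The groups overlapped through the third WT library, and the log2 fold change was -0.28 (SE 0.18, adjusted p = 0.902, limma). It was -0.42 without WT replicate 3 and -0.13 without *Crlf2*-/- replicate 2. *Pdgfra*, a receptor for PDGF ligands that is widely used to label fibroblasts, is at chr5:75152292-75198215 (plus strand, ENSMUSG00000029231). It stood at 15, 15.4 and 18.2 FPKM in WT and at 17.8, 12.9 and 12.9 FPKM in *Crlf2*-/- libraries. The first *Crlf2*-/- library, which had the lowest *Tcf21*, was thus among the highest for *Pdgfra*. Its log2 fold change was -0.17 (SE 0.15, adjusted p = 0.964, limma), with a 95% interval of the fold from 0.699 to 1.13, and it was -0.32 without *Crlf2*-/- replicate 1 and -0.08 without *Crlf2*-/- replicate 3.

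The activated genes did not share a direction. *Fap* and *Meox1* were near the WT level, *Runx1* was a little higher and *Scx* was higher in part of the *Crlf2*-/- libraries only. Their median log2 fold change was 0.09, and it was 0.03 without *Crlf2*-/- replicate 3 and 0.17 without WT replicate 2. *Fap* encodes fibroblast activation protein, a surface protease of activated fibroblasts, and is at chr2:62500943-62574075 (minus strand, ENSMUSG00000000392). It was 9.07, 7.13 and 8.92 FPKM in WT and 8.17, 7.61 and 7.42 FPKM in *Crlf2*-/- libraries, so all 3 *Crlf2*-/- values fell inside the WT range. *Fap* had a log2 fold change of -0.11 (SE 0.12, adjusted p = 0.988, limma), and the 95% interval of the fold, 0.764 to 1.13, left room for a difference of either sign. The *Fap* value was -0.22 without WT replicate 2 and -0.05 without WT replicate 1. *Meox1*, a homeobox factor that regulates the activated fibroblast state, is at chr11:101877510-101894374 (minus strand, ENSMUSG00000001493). It was 30.5, 47.0 and 36.1 FPKM in WT and 35.6, 30.8 and 42.8 FPKM in *Crlf2*-/- libraries. The *Crlf2*-/- values again lay inside the WT range, with a log2 fold change of -0.05 (SE 0.18, adjusted p = 0.996, limma) and a 95% interval of the fold from 0.722 to 1.30. It was 0.12 without WT replicate 2 and 0.07 without *Crlf2*-/- replicate 2.

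*Runx1* encodes a transcription factor of blood formation that leukocytes, injured cardiomyocytes and activated fibroblasts also express. It is at chr16:92601466-92826149 (minus strand, ENSMUSG00000022952). Its level was 8.97, 8.97 and 9.28 FPKM in WT and 11.2, 11 and 9.98 FPKM in *Crlf2*-/- libraries. The WT libraries lay close together, and each *Crlf2*-/- library was above them by at least 0.703 FPKM. The WT mean was 9.07 ± 0.177 FPKM (SD, n = 3), against 10.7 ± 0.650 FPKM (SD, n = 3) in the libraries labelled knockout. The log2 fold change was 0.24 (SE 0.10, unadjusted p = 0.0381, adjusted p = 0.714, limma), below the fold threshold of the study, with a 95% interval of the fold from 1.01 to 1.37. It stayed between 0.21 and 0.29 under the 14 alternatives. The unadjusted p ranged from 0.0275 without *Crlf2*-/- replicate 3 to 0.107 without WT replicate 2, and was 0.066 with the replicate block (limma). Of 8 macrophage markers, 7 had a log2 fold change above 0 with a median of 0.10, which was -0.04 with 3 of 8 above 0 without WT replicate 3. The part of leukocytes in the *Runx1* value was not tested.

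*Scx* encodes scleraxis, a factor of tendon cells that also regulates collagen genes in cardiac fibroblasts, and is at chr15:76457452-76459458 (plus strand, ENSMUSG00000034161). It lies inside the span of *Bop1*, which runs on the other strand and had 643 to 856 fragments in a library. *Scx* was 13.3, 16.8 and 11.8 FPKM in WT and 11, 20.8 and 24.7 FPKM in *Crlf2*-/- libraries. *Crlf2*-/- 2 and 3 exceeded all WT libraries, while *Crlf2*-/- 1 was the lowest of all 6. On the log2 scale *Scx* differed by 0.37 (SE 0.28, adjusted p = 0.942, limma), with a 95% interval of the fold from 0.82 to 2.03. Without *Crlf2*-/- replicate 1 it was 0.71 (unadjusted p = 0.00368, adjusted p = 0.329) and without *Crlf2*-/- replicate 3 it was 0.14.

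Both epicardial genes had a higher mean in *Crlf2*-/- hearts and neither was called. *Wt1*, a zinc finger factor of the epicardium that injured heart endothelium can also express, is at chr2:105126529-105173616 (plus strand, ENSMUSG00000016458). It had the fewest fragments of the 10 genes, 145 to 500 in a library. Its level was 1.02, 2.41 and 1.53 FPKM in WT and 3.66, 2.56 and 1.31 FPKM in *Crlf2*-/- libraries. The first *Crlf2*-/- library was the highest, and the third lay inside the WT range. The WT mean was 1.65 ± 0.70 FPKM (SD, n = 3) and that of the *Crlf2*-/- hearts 2.51 ± 1.18 FPKM (SD, n = 3). The log2 fold change of 0.54 (SE 0.40, adjusted p = 0.937, limma) was no larger than the spread between libraries, which was 0.58 in WT and 0.72 in *Crlf2*-/- mice (SD on the log2 scale). The counting error of the library with the fewest *Wt1* fragments was 0.12 on this scale, so most of the spread was not counting error. The value was 0.22 without *Crlf2*-/- replicate 1 and 0.93 without *Crlf2*-/- replicate 3. *Tbx18*, a T-box factor of the epicardium and of mural cells, is at chr9:87702800-87731260 (minus strand, ENSMUSG00000032419). It was 7.28, 7.45 and 6.86 FPKM in WT and 8.83, 7.57 and 7.67 FPKM in *Crlf2*-/- libraries. The groups did not overlap, but the gap was 0.129 FPKM, less than the counting error of the libraries on either side of it. The log2 fold change of *Tbx18* was 0.15 (SE 0.11, adjusted p = 0.929, limma), or 0.08 without *Crlf2*-/- replicate 1.

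**Figure D2:**
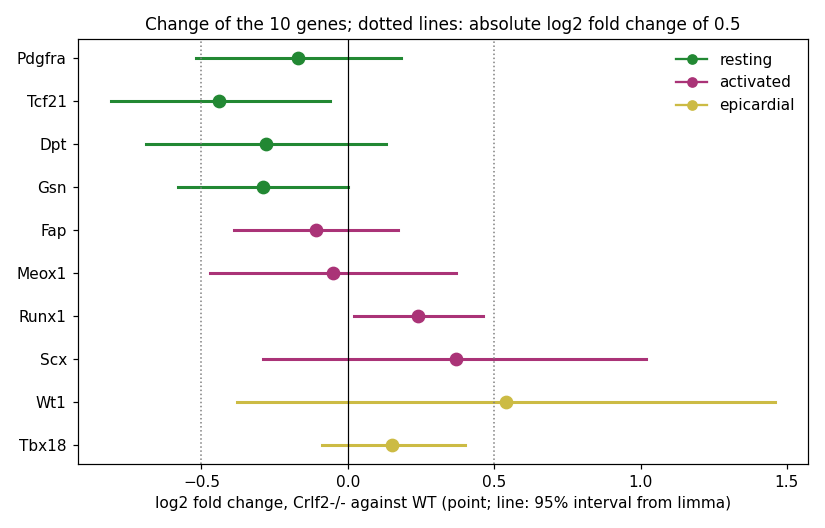
Log2 fold change of each gene between Crlf2-/- and WT hearts (horizontal axis, log2 scale) with its 95% interval from limma. Points for the 4 resting genes lie below 0 and those for the 2 epicardial genes above it, the intervals of Tcf21 and Runx1 do not reach 0, that of Gsn ends almost at 0, and the widest interval is that of Wt1.

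The libraries of 1 group differed from each other in different genes. Relative to the WT mean, the first *Crlf2*-/- library deviated by -0.77 for *Tcf21*, by -0.32 for *Scx* and by 1.18 for *Wt1* on the log2 scale. The second deviated by -0.40, 0.59 and 0.68 for the same genes. The third deviated by -0.14 for *Tcf21*, by 0.84 for *Scx* and by -0.24 for *Wt1*. The library with the least *Tcf21* thus had the most *Wt1* and the least *Scx*, and the one with the most *Scx* had *Tcf21* close to WT.

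**Figure D3:**
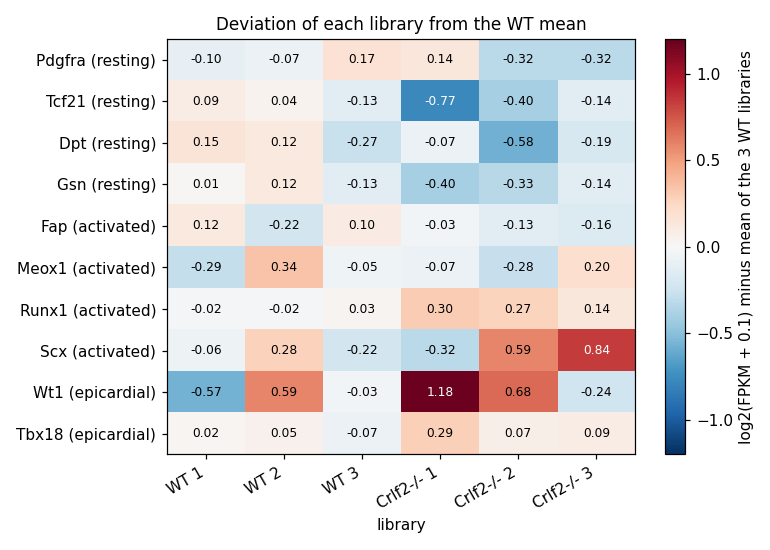
Deviation of log2(FPKM + 0.1) from the mean of the 3 WT libraries for each gene (rows) and library (columns), on a colour scale of log2 units with the value in each cell. The row of Runx1 is even in WT, from -0.02 to 0.03, and runs from 0.14 to 0.30 in Crlf2-/- libraries. The rows of Scx and Wt1 range from -0.32 to 0.84 and from -0.57 to 1.18.

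The contrast of the 3 classes was read within each library as the mean deviation of the activated or epicardial genes minus that of the resting genes. The mean deviation of the resting genes was 0.04, 0.05 and -0.09 in WT and -0.28, -0.41 and -0.20 in *Crlf2*-/- libraries. That of the activated genes was -0.06, 0.09 and -0.03 in WT and -0.03, 0.11 and 0.25 in *Crlf2*-/- libraries, where the groups overlapped. Over the *Crlf2*-/- libraries the resting mean was -0.30 and the activated mean 0.11. Activated minus resting was -0.10, 0.04 and 0.06 in the WT libraries and 0.25, 0.52 and 0.45 in the *Crlf2*-/- libraries on the log2 scale. Without *Scx* it was -0.10, -0.02 and 0.12 in WT and 0.34, 0.37 and 0.25 in *Crlf2*-/- libraries. Epicardial minus resting was -0.31, 0.27 and 0.04 in WT and 1.01, 0.78 and 0.12 in *Crlf2*-/- libraries, so here the groups overlapped. These scores carry no test, because the genes were grouped with earlier results known. For 3 single pairs of genes the ratio of levels was tested over the libraries (exact permutation test, two-sided, where 0.1 is the smallest p that 3 against 3 allow). The ratio of *Fap* to *Pdgfra* was 0.604, 0.464 and 0.491 in WT and 0.458, 0.590 and 0.577 in *Crlf2*-/- libraries (exact permutation p = 1.0). The ratio of *Meox1* to *Tcf21* was 1.07, 1.71 and 1.48 in WT and 2.28, 1.53 and 1.76 in *Crlf2*-/- libraries (exact permutation p = 0.2, and 0.3 adjusted over the 3 pairs). The ratio of *Wt1* to *Pdgfra* was 0.0682, 0.157 and 0.0844 in WT and 0.205, 0.198 and 0.102 in *Crlf2*-/- libraries (exact permutation p = 0.2, and 0.3 adjusted over the 3 pairs). The groups overlapped for each ratio. The genes of these pairs were also chosen with earlier results known, so the p-values of the ratios carry the same limit.

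Other genes of each kind were read from lists beside the 10 genes, and limma called 0 genes of each list. Of 15 further genes of resting fibroblasts, 9 had a log2 fold change below 0 and 6 above it, with a median of -0.07, or -0.02 without WT replicate 3. At an unadjusted p under 0.05 there was 1 on the lower side, against 3.36% of all genes tested, and there were 2 on the higher side, against 3.22%. The lower one was *Pi16*, a marker of a progenitor-like adventitial fibroblast, with means of 14.5 ± 1.39 FPKM (SD, n = 3) in *Crlf2*-/- hearts against 19.7 ± 3.96 FPKM (SD, n = 3) in WT, and an adjusted p of 0.635 (limma). The higher ones were *Hic1*, a repressor that keeps mesenchymal progenitors quiescent, with a log2 fold change of 0.41 (unadjusted p = 0.00961, adjusted p = 0.466, limma), and *Cd248*, the surface protein endosialin, with one of 0.35 (adjusted p = 0.646, limma). The proteoglycan genes *Lum* and *Dcn*, the most abundant of the list, had log2 fold changes of -0.22 and -0.10.

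Of 15 further genes of activated fibroblasts, 15 had a log2 fold change above 0, with a median of 0.22, where 7617 of the 15520 genes tested were above 0. At an unadjusted p under 0.05 there were 2, against 3.22% of all genes tested on this side. *Tnc*, which encodes the matrix glycoprotein tenascin C of healing tissue, was 42.9, 77.5 and 52.5 FPKM in WT and 108, 77.6 and 75.5 FPKM in *Crlf2*-/- libraries (log2 fold change 0.62, unadjusted p = 0.0278, adjusted p = 0.652, limma). *Acta2*, the smooth muscle actin of myofibroblasts, was 519, 619 and 494 FPKM in WT and 687, 723 and 648 FPKM in *Crlf2*-/- libraries, with no overlap (log2 fold change 0.34, adjusted p = 0.711, limma). The main scar collagens *Col1a1* and *Col3a1* had log2 fold changes of 0.25 and 0.01. The WT library with the lowest values of this list was the first, and without WT replicate 1 the median was 0.08 with 11 of 15 above 0.

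Of 10 genes of late scar and tendon-type fibroblasts, to which *Scx* relates, 5 were above and 5 below 0, with a median near 0. *Comp* and *Fmod*, cartilage and tendon matrix genes and the most abundant of these, had log2 fold changes of -0.31 and -0.01. *Chad*, which encodes the matrix protein chondroadherin, was the only one at an unadjusted p under 0.05, against 3.36% of all genes tested on the lower side. Its means were 0.579 ± 0.0823 FPKM (SD, n = 3) in *Crlf2*-/- hearts against 1.04 ± 0.274 FPKM (SD, n = 3) in WT (log2 fold change -0.73, adjusted p = 0.514, limma). Of 6 PDGF ligands and receptors beside *Pdgfra*, 1 was above and 5 were below 0, within -0.15 to 0.13 and with a median of -0.07 (-0.01 without WT replicate 3), and 0 had an unadjusted p under 0.05. *Pdgfrb* and the receptor-like gene *Pdgfrl*, the most abundant, had log2 fold changes of -0.01 and -0.13. Of 17 relatives and cofactors of the 10 genes, 8 were above and 9 below 0, with a median of -0.02 that was 0.05 without WT replicate 3. Among them *Meox2* had a log2 fold change of -0.34 (unadjusted p = 0.0131, adjusted p = 0.516, limma) and *Msc*, which encodes musculin, a relative of Tcf21, one of 0.74 (unadjusted p = 0.0266, adjusted p = 0.645, limma). These were the 2 of the list at an unadjusted p under 0.05, against 6.58% of all genes tested. *Cbfb*, the shared partner of Runx factors, and *Wwtr1*, the coactivator Taz, had log2 fold changes of -0.02 and -0.08.

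**Figure D4:**
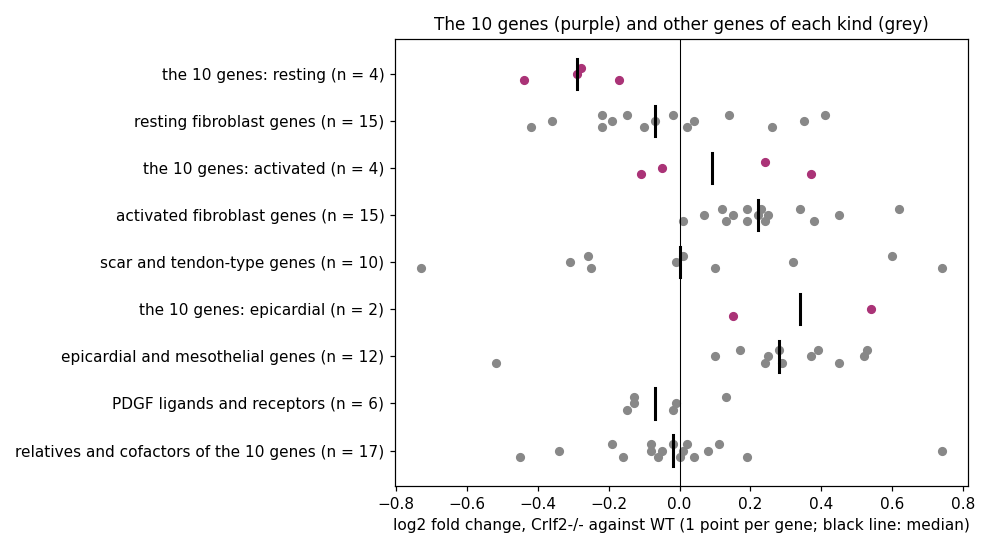
Log2 fold change between Crlf2-/- and WT hearts (horizontal axis) for the 10 genes, in purple, and for the other genes of each list, in grey, with 1 point per gene and a black line at each median. Medians are -0.29 for the 4 resting genes and -0.07 for the 15 others, and 0.09 for the 4 activated genes and 0.22 for the 15 others.

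Of 12 further epicardial and mesothelial genes, 11 were above 0, with a median log2 fold change of 0.28, and 0 had an unadjusted p under 0.05. The median was -0.08 with 5 of 12 above 0 without *Crlf2*-/- replicate 1, and 0.007 without WT replicate 1. In *Crlf2*-/- 1 the median deviation of the list from the WT mean was 1.06 on the log2 scale, against -0.05 and 0.18 in the other *Crlf2*-/- libraries. Within WT it was -0.53, 0.32 and 0.42. *Msln*, the mesothelial surface protein mesothelin, was 4.01, 4 and 6.89 FPKM in WT and 10.8, 3.51 and 5.37 FPKM in *Crlf2*-/- libraries, and *Upk3b*, chosen after its values were seen, was 1.23, 3.51 and 4.97 FPKM in WT and 7.25, 2.08 and 3.30 FPKM in *Crlf2*-/- libraries. Like *Wt1*, both were highest in the first *Crlf2*-/- library. *Krt18*, the 1 gene of the list below 0 (log2 fold change -0.52), was not. It was 2.89, 7.96 and 5.05 FPKM in WT and 3.53, 1.72 and 6.25 FPKM in *Crlf2*-/- libraries. *Aldh1a2*, the retinoic acid enzyme of the epicardium and the most abundant gene of the list, varied less, from 11.3 to 17.1 FPKM over the 6 libraries. How much epicardium each tissue piece held was not tested.

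**Figure D5:**
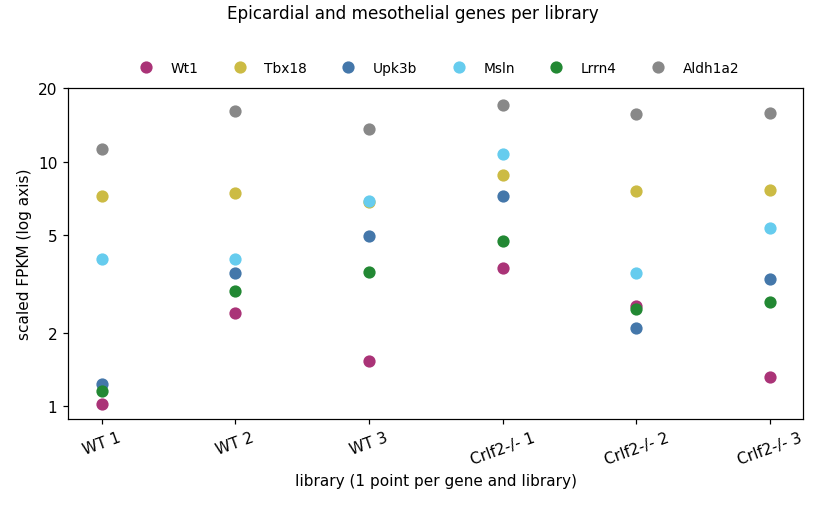
Scaled FPKM (vertical log axis) of Wt1, Tbx18 and 4 other epicardial or mesothelial genes in each of the 6 libraries, 1 point per gene and library, where Upk3b and Lrrn4 were chosen after their values were seen. Wt1, Upk3b, Msln and Lrrn4 are each highest in Crlf2-/- 1, Wt1, Upk3b and Lrrn4 are lowest in WT 1, and Tbx18 and Aldh1a2 vary less. In WT 3 the point of Msln covers that of Tbx18.

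Markers of other cell types also differed in mean between the groups, with 0 called. Of 10 cardiomyocyte markers, 10 were below 0 in *Crlf2*-/- hearts with a median log2 fold change of -0.72. Their summed level was 1030 to 1930 FPKM in WT and 671 to 1330 FPKM in *Crlf2*-/- libraries. The median was -0.51 without *Crlf2*-/- replicate 2 and -1.0 without WT replicate 1. At most 2 of 10 were above 0 when a library was left out. Their median deviation from the WT mean was -0.91, -1.16 and -0.08 in the *Crlf2*-/- libraries and -0.56 in WT 1. *Myl2*, *Myl3* and *Tnni3*, contractile genes of the heart, were among the 4 at an unadjusted p under 0.05, against 3.36% of all genes tested on the lower side. Of 5 red blood cell markers, 5 were below 0 with a median of -1.29. All 5 had no overlap between groups, against 6.37% of all genes tested on the lower side. Their summed levels were 226 to 366 FPKM in WT and 85.4 to 161 FPKM in *Crlf2*-/- libraries, and their lowest adjusted p was 0.0637 (limma). Of 6 T cell markers, 6 were below 0 with a median of -1.25, at 7.37 to 12 FPKM in WT and 3.53 to 4.95 FPKM in *Crlf2*-/- libraries. All 6 had an unadjusted p under 0.05 (limma) and no overlap between groups, against 3.36% and 6.37% of all genes tested on the lower side. Of these, the study reported *Lck* and *Cd3e* as lower with the DESeq2 package. The 8 macrophage markers summed to 2310 to 4170 FPKM in WT and 2740 to 3400 FPKM in *Crlf2*-/- libraries. Of 6 endothelial markers, 5 were below 0 with a median of -0.13, and mural cell markers (3 of 6 above 0) and proliferation markers (6 of 6 above 0) had medians of 0.07 and 0.10. Both depended on 1 library, as the mural median was -0.10 without WT replicate 1 and the proliferation median was -0.03 with 3 of 6 above 0 without WT replicate 3. The defining cardiomyocyte markers were present in all 6 libraries, as the heart label states. The extraction protocol in the labels speaks of retina, but the photoreceptor genes *Crx* and *Rbp3* had 0 fragments in all 6 libraries. The part of these other cell types in the values of the 10 genes was not tested.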

How the data were processed

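RNA from infarcted hearts of 3 WT and 3 *Crlf2*-/- mice was sequenced by the study. Reads were filtered by the authors, who used HISAT2 2.0.5 for alignment and featureCounts for counting. Their deposited values are FPKM for each gene in each library, and the table also lists gene lengths. The submitters' processing notes list mm10 and a human build. The table's genes matched GENCODE M21 (GRCm38) for 54409 of 54532 identifiers, 53499 with the same start and end, the 10 genes among them. The deposited FPKM multiplied by gene length were whole multiples of 1 step for 100% of nonzero values (tolerance 0.01 fragments), which gave the fragments behind each value. The table held 0 columns of other samples.

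Libraries were scaled with factors from a trimmed mean of M values (30% of M and 5% of A trimmed). Genes that reached 10 fragments in 3 libraries or more, and 15 fragments over all libraries, were tested with limma 3.58.1 in R 4.3.3 (trend and robust) on log2(FPKM + 0.1), a scale that understates changes of low genes. Nothing in the labels says more than that the libraries are separate samples, so p-values measure the spread between these samples. The 10 genes and all lists were chosen with earlier results of these data known. Named beside the 10 genes were, from each fibroblast, epicardial, PDGF and relatives list, the 2 genes of highest mean level and up to 3 with the smallest unadjusted p under 0.05, from the lists of other cell types up to 3 such genes, and *Crlf2*. *Upk3b*, *Lrrn4* and *Krt18* were named outside this rule, after their values were seen. *Mrtfa* and *Mrtfb* were matched by Ensembl identifier, since the table uses older symbols. Promoter sequences came from a RefSeq table. Values of some other marker genes are not reported here. Python 3.11.15 with numpy 2.4.6, pandas 2.3.3, scipy 1.17.1 and matplotlib 3.10.9 was used for the rest. Alternatives were other scalings, pseudocounts and filters, a replicate block, voom, and leaving out each library.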

Additional observations from a re-analysis of the deposited data

How the results depend on the processing

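None of the 10 genes was called under any of the 14 alternatives (limma and voom, 0 to 4 of the 10 at an unadjusted p under 0.05). Changing the filter or adding the replicate block cannot alter the log2 fold change of a gene, only its p. Of 140 values of a gene under an alternative, these included, 138 kept their direction. The other 2 were those of *Meox1*, whose log2 fold change of -0.05 became 0.12 without WT replicate 2 and 0.07 without *Crlf2*-/- replicate 2, with a range of -0.19 to 0.12 when each library was left out. The adjusted p of the 10 genes stayed at or above 0.329 throughout. The 4 genes whose groups did not overlap kept that with FPKM as deposited and with median ratio scaling.

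Of all genes tested, 2 were called (1 higher, 1 lower). There were 6 when low genes were kept, 1 with at least 10 fragments in every library, and 1 to 14 when each library was left out, with 14 without *Crlf2*-/- replicate 1, 8 without WT replicate 3, and 1 without WT replicate 1, WT replicate 2 or *Crlf2*-/- replicate 3. The cause was not tested. At the same thresholds the study, with the DESeq2 package, reported far more genes, *Lck* and *Cd3e* among those lower in *Crlf2*-/- hearts. Why the numbers differ from those called here was not tested. The groups share replicate numbers, whose deviations had correlations of -0.0163, 0.115 and 0.12, and were not treated as pairs. With the replicate block 4 genes were called in all, 0 of them among the 10 genes, of which 1 had an unadjusted p under 0.05. Leaving out each library for the list medians and for the ratios was added after seeing the data. The ratio of *Fap* to *Pdgfra* then ranged from -0.02 to 0.18 on the log2 scale, that of *Meox1* to *Tcf21* from 0.20 to 0.54 and that of *Wt1* to *Pdgfra* from 0.48 to 1.08. Counting error limits *Wt1* most.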
